A study of Mus musculus with 8 samples.

Results

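Beta-cell disallowed genes are genes that most tissues express and that the mature beta cell keeps low. In this series they were represented by Ldha, Slc16a1, Hk1, Hk2, Acot7, Mgll, Oat and Pdgfra, which are 8 of the 53012 Ensembl identifiers in the count table. The members were found by matching their mouse symbols to those identifiers. The rule uses no measured value, although the set was proposed with earlier results of these data known. All 8 passed the filter on low counts, which left 15474 genes for testing.

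The levels come from bulk RNA-seq of islets from 8 mice aged 17 months, each mouse with a library of its own. The 4 βIgf1r mice (CTRL; mice M148, M151, M152 and M153) carried floxed Igf1r alleles without Ins1-CreERT2 (Ins1-CreERT2-/-, Igf1r flox/flox) and were injected with corn oil. The 4 βIgf1rKD mice (KD; mice M145, M146, M149 and M150) carried the tamoxifen-inducible recombinase Ins1-CreERT2 (Ins1-CreERT2+/-, Igf1r flox/flox) and were given 5 intraperitoneal injections of tamoxifen at 0.075 mg/g. Islet isolation followed the last injection by 7 days. Both groups held mice of both sexes, and the sex of a single mouse was not given. The methods place the Cre under a rat insulin promoter, so excision of the floxed exon was directed to beta cells, whereas the RNA came from all cells of the preparation. The effects of the Cre, of tamoxifen and of the excision cannot be told apart, because all 3 were present in every KD mouse and in no CTRL mouse.

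A beta cell couples glucose to insulin secretion by sending nearly all pyruvate into the mitochondria. Lactate dehydrogenase A and the monocarboxylate transporter encoded by Slc16a1 would divert pyruvate to lactate or let pyruvate and lactate from muscle into the cell. The high-affinity hexokinases of Hk1 and Hk2 phosphorylate glucose even when it is low. The remaining members act on lipids (Acot7, Mgll), on ornithine and glutamate (Oat) or as a growth factor receptor of mesenchymal cells (Pdgfra), and an islet preparation also holds alpha, delta, endothelial, mesenchymal, immune and exocrine cells in which many of these genes are expressed.

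The promoters of 4 members are shown because Ldha, Slc16a1 and Oat rose and fell together from mouse to mouse and Hk2 was the only member with a p under 0.05 before adjustment. Each run holds the 250 bases before the start of transcription, read 5′ to 3′ on the strand of the gene, from RefSeq on GRCm38.p6. Capitals mark ACGTG or its reverse complement CACGT, the core shared by sites of hypoxia-inducible and several other basic helix-loop-helix factors.
Ldha, chr7:46845554-46845803, plus strand: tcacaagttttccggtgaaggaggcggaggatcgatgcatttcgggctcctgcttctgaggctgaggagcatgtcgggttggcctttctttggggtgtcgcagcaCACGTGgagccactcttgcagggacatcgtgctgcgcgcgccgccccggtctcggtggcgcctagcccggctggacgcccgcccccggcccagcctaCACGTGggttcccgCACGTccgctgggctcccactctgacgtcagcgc
Slc16a1, chr3:104638414-104638663, plus strand: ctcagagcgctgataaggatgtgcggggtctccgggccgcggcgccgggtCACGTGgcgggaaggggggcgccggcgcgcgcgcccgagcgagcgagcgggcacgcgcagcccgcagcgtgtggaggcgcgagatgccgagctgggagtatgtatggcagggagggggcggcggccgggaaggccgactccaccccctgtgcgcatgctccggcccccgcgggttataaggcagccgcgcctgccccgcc
Oat, chr7:132576399-132576648, minus strand: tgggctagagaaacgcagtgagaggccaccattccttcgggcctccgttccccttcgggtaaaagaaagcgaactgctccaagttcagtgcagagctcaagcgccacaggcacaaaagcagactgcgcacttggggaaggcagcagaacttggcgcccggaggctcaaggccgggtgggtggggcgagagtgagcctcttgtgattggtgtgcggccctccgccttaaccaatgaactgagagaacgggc
Hk2, chr6:82774455-82774704, minus strand: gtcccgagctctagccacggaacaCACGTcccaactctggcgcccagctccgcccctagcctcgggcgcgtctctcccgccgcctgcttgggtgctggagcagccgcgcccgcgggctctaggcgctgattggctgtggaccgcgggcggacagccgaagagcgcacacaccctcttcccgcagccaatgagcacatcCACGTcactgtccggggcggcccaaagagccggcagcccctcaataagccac
The core stood at 3 places in the Ldha window printed, at 1 in the Slc16a1 window, at 2 in the Hk2 window and at none in the Oat window. A second Ldha window in the same table, chr7:46846832-46847081, held neither the core nor the E-box. Where the core is read as CACGTG, the palindromic E-box, the shorter motif is contained in it, which was the case at 2 of the Ldha places and at the Slc16a1 place. Of 32851 promoter windows of the same length in the RefSeq table, 16.6% held ACGTG on either strand and 6.02% held CACGTG. Of the 8 members, with 11 windows between them, 4 held ACGTG and 3 held CACGTG in at least 1 of their windows. These are counts of genes, some with more than 1 window, and cannot be set directly against the shares of single windows. None of the 4 windows printed overlapped an exon of GENCODE M21, and the Ldha window lay inside the annotated Ldha gene, in an intron of its longer transcripts. The motif was chosen after the sequences and the counts had been seen, and a match is a description of letters, not of a bound site.

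The libraries held between 21634080 and 42391328 estimated counts. CTRL totals ran from 21634080 to 31202154 and KD totals from 23826023 to 42391328. Levels are given as CPM, a gene's counts scaled to a library of common size, with sizes set by TMM. Igf1r, the targeted gene, had 53.6 ± 7.21 CPM in CTRL and 50.7 ± 5.0 CPM in KD (SD, n = 4 each), a log2 difference of -0.08 (SE 0.11) with an exact two-sided permutation p of 0.543. The count covers the whole gene, so a transcript that lacks only the floxed exon still adds to it. With edgeR's quasi-likelihood test and Benjamini-Hochberg adjustment over all 15474 genes, 0 genes (0%) passed an adjusted p of 0.05, against 8 with DESeq2 and 1 with limma-voom. At an unadjusted p under 0.05 the test named 637 genes, or 4.12%, and 345 of them (2.23%) were higher in KD. The CPM of the groups did not overlap for 344 genes (2.22%).

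Not every member was low among the genes tested in these whole-islet preparations. Per kilobase of exon, the order from high to low was Ldha, Oat, Mgll, Acot7, Hk1, Slc16a1, Hk2 and Pdgfra. Ldha had 5.48 ± 2.34 CPM per kb (SD over 8 mice), Oat 5.08 ± 1.08 and Mgll 4.09 ± 0.646, all above the median of 2.98 CPM per kb over the 15244 tested genes with a known exon length. Of those genes, 66.4% had a lower level than Ldha, 64.4% a lower level than Oat and 58.8% a lower level than Mgll. Acot7 at 2.46 ± 0.709 and Hk1 at 1.15 ± 0.292 CPM per kb lay below the median. Slc16a1 (0.247 ± 0.112), Hk2 (0.213 ± 0.0706) and Pdgfra (0.169 ± 0.133 CPM per kb) were near the bottom, with 8.56%, 7.13% and 5.08% of tested genes below them. Some neighbours in the order were not separated. Ldha exceeded Oat in 4 of 8 mice and Oat exceeded Mgll in 6 of 8, whereas Mgll exceeded Acot7, Acot7 exceeded Hk1 and Hk1 exceeded Slc16a1 in all 8. Slc16a1 exceeded Hk2 in 5 of 8 mice and Hk2 exceeded Pdgfra in 5 of 8, so the last 3 members had no fixed order. In bulk RNA fewer cells of a type and less RNA per cell cannot be told apart, so a low level here can stand for a low level in every cell or for expression in few cells. Likewise, a level above the median here is not a level in beta cells, and the name of the set was not tested.

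**Figure D1:**
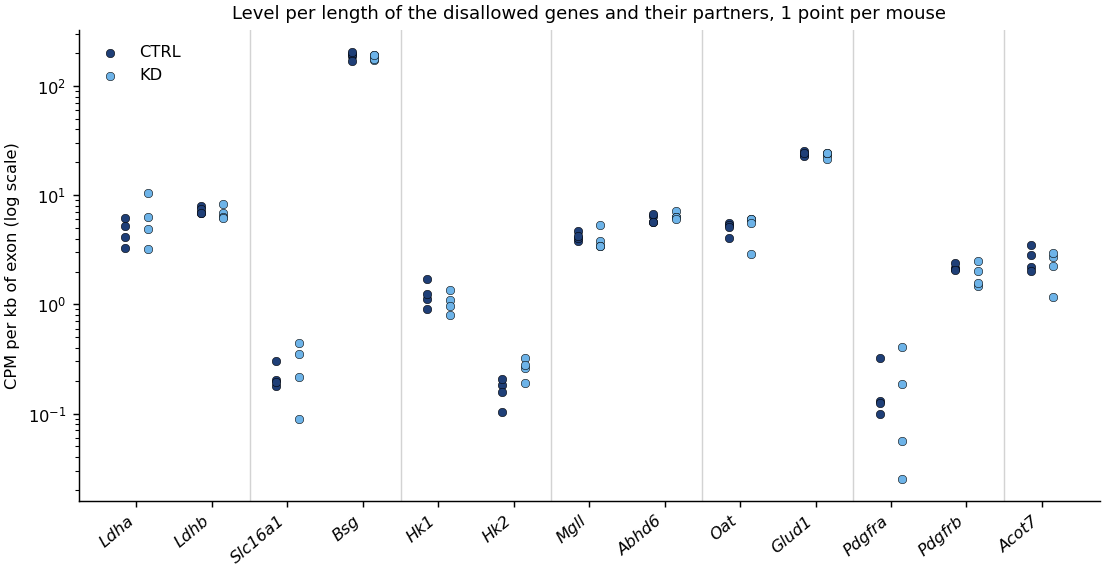
Level per length in CPM per kb of exon on a log axis for the 8 members and, within the same grey dividers, the related genes they were compared with, 1 point per mouse, CTRL dark and KD light. Bsg lay far above Slc16a1 and Hk1 above Hk2, whereas Ldha and Ldhb overlapped.

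Set beside a related gene, not necessarily one of beta cells, the members spanned a wide range of ratios within the library. Ldhb, the other main lactate dehydrogenase subunit, had 1.38 times the level per length of Ldha (median over 8 mice, range 0.600 to 2.56), so both genes were at similar levels. Which of them was higher depends on the length used, 3310 bases for Ldha (1766 for Ldha-201) and 1570 for Ldhb (1304 for Ldhb-201). In CPM, Ldha averaged above Ldhb, at 15.6 and 11.5 in CTRL and 20.7 and 10.8 in KD. Bsg, the chaperone that carries the Slc16a1 transporter to the membrane, stood at 868 times Slc16a1 (398 to 1940). Hk1 stood at 5.38 times Hk2 (2.46 to 10.8). Hk1 was thus the more abundant of the 2 hexokinases in every mouse of both groups. Abhd6, a second monoacylglycerol lipase, stood at 1.55 times Mgll (1.19 to 1.87), and Glud1, glutamate dehydrogenase, at 4.44 times Oat (3.89 to 7.28). Pdgfrb, the receptor of pericytes, stood at 17.9 times Pdgfra, with the widest span of these ratios relative to its median (6.07 to 62.5).

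All 8 members varied more between mice than the median tested gene, and no comparison with genes of like level was made. Their coefficients of variation over the 8 mice were 42.6% for Ldha, 45.2% for Slc16a1, 25.4% for Hk1, 33.1% for Hk2, 28.8% for Acot7, 15.8% for Mgll, 21.2% for Oat and 78.6% for Pdgfra, against a median of 14.3% over all tested genes. Counting error alone would give 4.13% for Mgll, 4.50% for Ldha, 14.5% for Pdgfra, 16.8% for Hk2 and 18.3% for Slc16a1, each below what was measured. For Pdgfra, Hk2 and Slc16a1 that error alone was above the median of 14.3%. Slc16a1 rested on 11 to 45 counts per mouse, Hk2 on 20 to 68 and Pdgfra on 7 to 94, so their single values are the least precise of the set. The extremes came from few animals. KD mouse M149 was the highest of the 8 mice for Ldha, Slc16a1, Hk2, Mgll and Pdgfra, and KD mouse M146 was the lowest for Ldha, Slc16a1, Acot7, Mgll, Oat and Pdgfra. CTRL mouse M151 was the highest for Hk1 and Acot7.

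**Figure D2:**
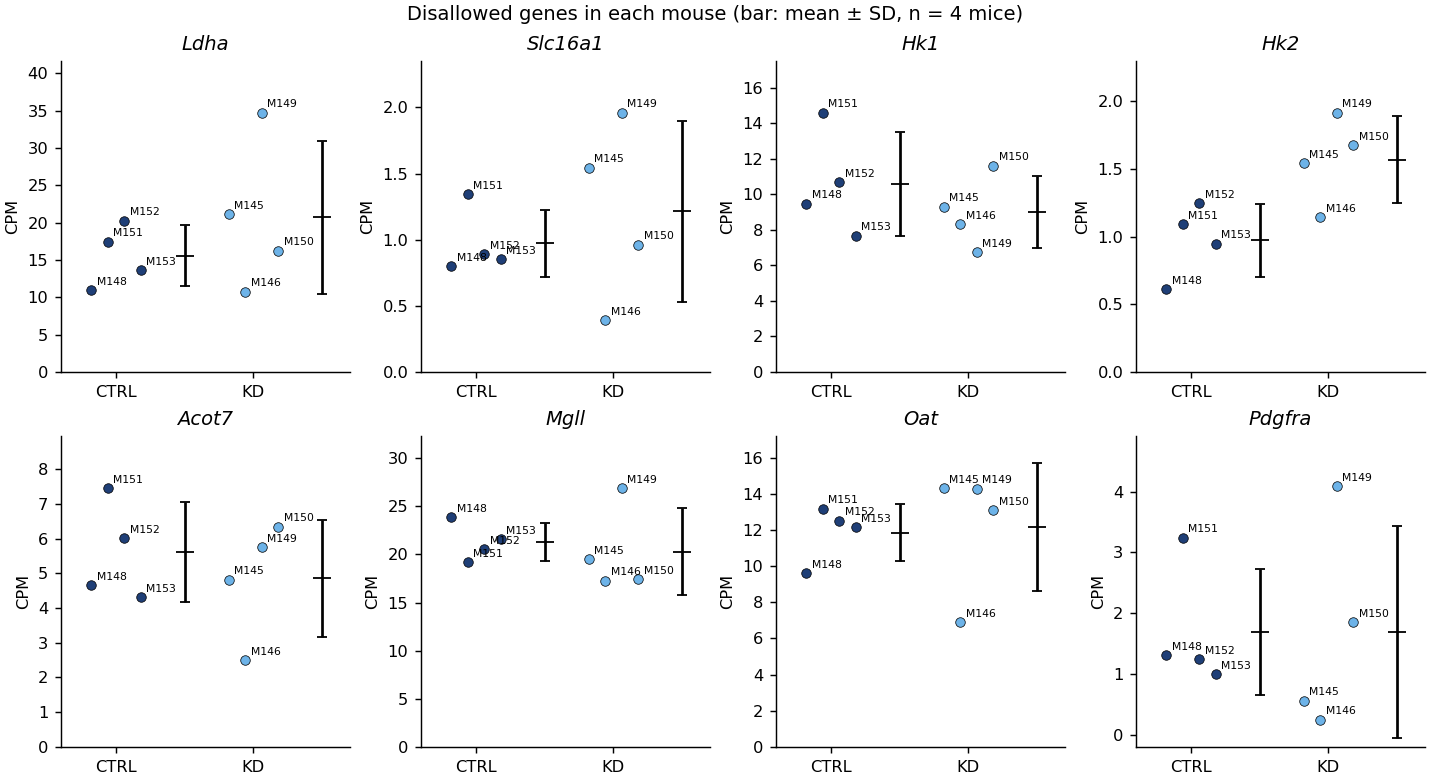
CPM of each member in each mouse (points, labelled with M and the mouse number) with the mean and SD of the group beside them (n = 4 per group). Hk2 is the member with the clearest shift, with 3 of 4 KD mice above the highest CTRL mouse, and the KD mice M149 and M146 mark the ends of the range in most other panels.

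The comparison of KD with CTRL asks whether genes normally kept low in beta cells differed after Igf1r was targeted there. Of the 8 members, 4 were estimated higher and 4 lower in KD, with a median log2 fold change of 0.01, beside 0.01 over all genes tested. None passed the adjusted threshold (0 of 8, beside 0% of all genes), with adjusted p between 0.987 and 1.0. Hk2 was the single member with an unadjusted p under 0.05, beside 4.12% of all genes, and no member had groups that did not overlap, beside 2.22% of all genes. Hk2 was also in the 2.23% of genes with an unadjusted p under 0.05 and a higher level in KD. The intervals of the 8 differences, given below per gene, were wide enough that changes of moderate size in either direction were not detectable for most members at this depth and number of mice.

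Ldha encodes the subunit of lactate dehydrogenase that favours conversion of pyruvate to lactate (chromosome 7, 46841475 to 46855627, plus strand, GRCm38). Its CPM in CTRL was 10.97, 17.4, 20.3 and 13.7 in mice M148, M151, M152 and M153. In KD it was 21.1, 10.7, 34.7 and 16.2 in mice M145, M146, M149 and M150. The KD group held both the lowest and the highest mouse, and the groups overlapped. The log2 fold change was 0.41 (SE 0.33, 95% interval -0.33 to 1.14), with an unadjusted p of 0.246 by edgeR's quasi-likelihood test and an exact two-sided permutation p of 0.514 for the log2 CPM. The processed pseudogenes Ldha-ps and Ldha-ps2 had 0 and 7 counts over all mice, so little of the Ldha signal was split to them. Relative to Ldhb within the library, the log2 ratio of CPM, not per length, was 0.40 ± 0.31 in CTRL and 0.81 ± 0.86 in KD (exact two-sided permutation p = 0.457).

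Slc16a1 encodes MCT1, the transporter of lactate and pyruvate (chromosome 3, 104638668 to 104658462, plus strand). The CTRL mice had 0.799, 1.35, 0.890 and 0.853 CPM, in the order used for Ldha. The KD mice had 1.54, 0.393, 1.96 and 0.962 CPM, again in that order. The 4 KD mice thus spanned a 4.99-fold range that enclosed all CTRL mice. KD over CTRL was 0.31 on the log2 scale (SE 0.44, interval -0.68 to 1.29), with p = 0.504 by edgeR and 0.771 by the exact permutation test. The ratio to Bsg differed by 0.18 on the log2 scale (exact permutation p = 0.743), with Bsg at 345 ± 28.9 CPM in CTRL and 333 ± 20.3 CPM in KD.

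Of the other genes of lactate and pyruvate handling, 16 of 17 could be tested (Ldhc was not), 7 were estimated higher and 9 lower, and none had an unadjusted p under 0.05. Their median log2 fold change was -0.01. The largest difference was that of Slc16a3, the lactate exporter MCT4 of glycolytic tissues, at 0.409 ± 0.167 CPM in CTRL and 0.734 ± 0.301 CPM in KD, with a log2 fold change of 0.85 (SE 0.42, unadjusted p of 0.0745 by edgeR). Pyruvate dehydrogenase subunits, the mitochondrial pyruvate carrier and pyruvate carboxylase were all in that list, and no gene of that route into the mitochondria passed the test.

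Hk1, a hexokinase of brain and many other tissues (chromosome 10, 62268855 to 62379908, minus strand), had 9.48, 14.6, 10.7 and 7.68 CPM in CTRL mice M148, M151, M152 and M153. It had 9.31, 8.32, 6.75 and 11.6 CPM in KD mice M145, M146, M149 and M150. The groups overlapped, with CTRL mouse M151 alone at the top. The log2 fold change was -0.23 (SE 0.22, interval -0.72 to 0.25), with p = 0.307 by edgeR and 0.4 by the exact permutation test. It was -0.04 without mouse M151 and -0.46 with Xist as a covariate for sex (unadjusted p of 0.0180 by edgeR). With the endothelial sum as a covariate it was -0.93 (SE 0.31, unadjusted p of 0.0166 by edgeR). The endothelial sums of the groups did not overlap, so that fit cannot separate the covariate well from the group. None of these passed after adjustment over all genes. The antisense gene Hk1os shares 157 exon bases with Hk1 and had 11 counts over all mice, and whether the counting used the strand was not stated.

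Hk2, the insulin-responsive hexokinase of muscle and fat (chromosome 6, 82725025 to 82774454, minus strand), had 0.612, 1.09, 1.25 and 0.948 CPM in CTRL. It had 1.54, 1.14, 1.92 and 1.68 CPM in KD, both in the order used above. Of the KD mice, 3 were above the highest CTRL mouse and mouse M146 lay within the CTRL range. The log2 fold change was 0.69 (SE 0.28, interval 0.06 to 1.32), which is 1.61-fold, with an unadjusted p of 0.0356 by edgeR's quasi-likelihood test and an adjusted p of 0.987. The exact two-sided permutation p of its log2 CPM was 0.0571, in a design whose smallest possible value is 0.0286. Hk2 with the summed acinar markers as a covariate had a log2 fold change of 0.44 (unadjusted p of 0.149 by edgeR). With the endothelial sum, which did not overlap between the groups, it was 0.46 (SE 0.55, unadjusted p of 0.419 by edgeR). Leaving out CTRL mouse M148, the lowest, gave 0.51 with a p of 0.100.

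Within the library, the log2 ratio of Hk2 to Hk1 was -3.36 ± 0.44 in CTRL and -2.46 ± 0.47 in KD (SD, n = 4 each). The CTRL ratios ran from -3.81 to -2.93 and the KD ratios from -2.79 to -1.78, so the groups did not overlap. The difference of 0.89 had an exact two-sided permutation p of 0.0286, the smallest that 4 against 4 mice allow, and an adjusted p of 0.229 over the 8 ratios compared. It therefore did not pass the correction.

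Among the 13 other genes of glucose uptake and phosphorylation, 7 were estimated higher and 6 lower, with a median log2 fold change of 0.02. Of these, 2 had an unadjusted p under 0.05, and both were higher in KD, beside 2.23% of all genes. Hkdc1, a hexokinase-like gene, had 0.422 ± 0.284 CPM in CTRL and 1.57 ± 1.59 CPM in KD, with a log2 fold change of 1.86 (SE 0.81, unadjusted p of 0.0450 by edgeR) and groups that overlapped. Adpgk, a sugar kinase that uses ADP, had 13.2 ± 0.679 CPM in CTRL and 16.1 ± 1.65 CPM in KD, a log2 fold change of 0.28 (SE 0.10, unadjusted p of 0.0161 by edgeR), with no overlap. Neither passed after adjustment over all genes (adjusted p = 0.987 for both by edgeR).

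Acot7, a cytosolic thioesterase that releases fatty acids from acyl-CoA (chromosome 4, 152178134 to 152271855, plus strand), had 4.66, 7.46, 6.02 and 4.31 CPM in CTRL. It had 4.82, 2.50, 5.75 and 6.34 CPM in KD, in the same order of mice. Mouse M146 was the single KD mouse outside the CTRL range. Without it the log2 fold change was 0.0085. KD against CTRL gave -0.21 on the log2 scale (SE 0.29, interval -0.85 to 0.43), with p = 0.483 by edgeR and 0.571 by the exact permutation test.

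Mgll, the lipase that splits monoacylglycerol and ends endocannabinoid signalling (chromosome 6, 88724412 to 88828360, plus strand), had 23.9, 19.2, 20.5 and 21.6 CPM in CTRL. It had 19.5, 17.3, 26.9 and 17.4 CPM in KD. It was the least variable member, and mouse M149 stood apart from the other 3 KD mice. Its log2 fold change was -0.07 (SE 0.15, interval -0.41 to 0.26), with p = 0.633 by edgeR and 0.629 by the exact permutation test. Without M149 it was -0.24 (unadjusted p of 0.0470, adjusted p near 1.0 by edgeR). The antisense gene Gm26588 shares 167 exon bases with Mgll and had 64 counts over all mice. The log2 ratio to Abhd6 differed by -0.16 (exact permutation p = 0.343). Of 13 further genes of acyl-CoA and monoacylglycerol turnover, 9 were estimated higher and 4 lower, none with an unadjusted p under 0.05, and the largest difference was that of the thioesterase Acot9 (log2 fold change 0.29, SE 0.24).

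Oat, the mitochondrial ornithine aminotransferase (chromosome 7, 132557478 to 132576398, minus strand), had 9.61, 13.2, 12.5 and 12.1 CPM in CTRL. It had 14.3, 6.89, 14.3 and 13.1 CPM in KD. Mice M145 and M149 were above all CTRL mice, M150 was close to the highest CTRL mouse and M146 lay below all other mice. Its log2 fold change was 0.04 (SE 0.22, interval -0.45 to 0.52), with p = 0.875 by edgeR and 0.971 by the exact permutation test. The log2 ratio to Glud1 differed by 0.02 (exact permutation p = 0.943). Of the other ornithine, proline and glutamate genes, 11 of 12 could be tested (Otc was not), 7 were estimated higher and 4 lower, and the median log2 fold change was 0.10. Arg2, the mitochondrial arginase that makes ornithine, was the 1 gene of that list with an unadjusted p under 0.05, beside 4.12% of all genes. It had 0.346 ± 0.252 CPM in CTRL and 2.08 ± 2.21 CPM in KD, with a log2 fold change of 2.54 (SE 0.81, unadjusted p of 0.0115 and adjusted p = 0.987 by edgeR). Arg2 ranged from 0.142 to 0.712 CPM in CTRL and from 0.419 to 5.24 CPM in KD, so the groups overlapped.

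Pdgfra, the receptor for PDGF-AA on fibroblast-like cells (chromosome 5, 75152292 to 75198215, plus strand), had 1.30, 3.24, 1.25 and 0.995 CPM in CTRL. It had 0.561, 0.250, 4.09 and 1.85 CPM in KD. The KD mice spanned a 16.4-fold range that enclosed all CTRL mice, from mouse M146 to mouse M149. The groups differed by -0.01 on the log2 scale (SE 0.73, interval -1.65 to 1.62), with p = 0.987 by edgeR and 0.6 by the exact permutation test. The log2 ratio to Pdgfrb differed by -0.26 (exact permutation p = 0.771). Of the 6 other PDGF ligands and receptors, 2 were estimated higher and 4 lower, none with an unadjusted p under 0.05, and the largest difference was that of the ligand Pdgfa (log2 fold change 0.37, SE 0.22, unadjusted p of 0.126 by edgeR).

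**Figure D3:**
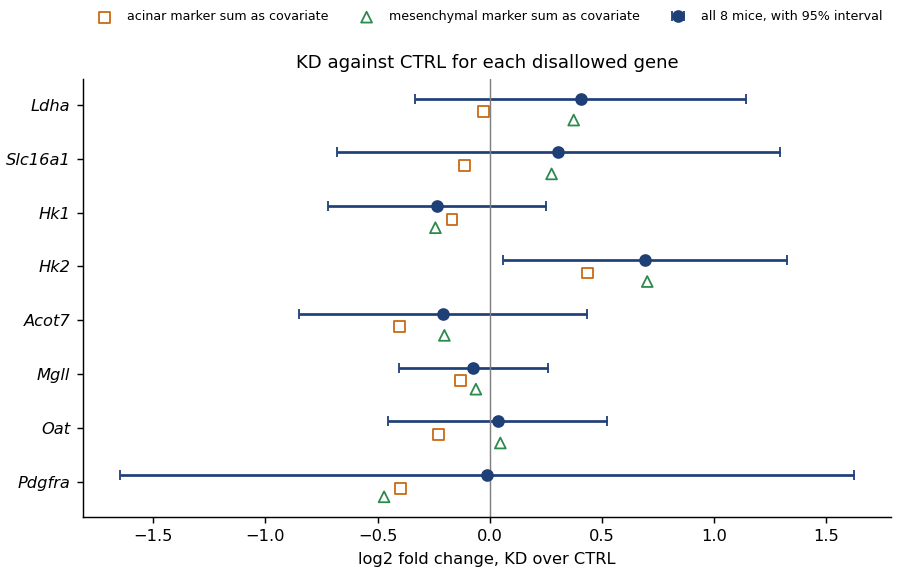
Log2 fold change of KD over CTRL for each member, with all 8 mice and its 95% interval (filled points), and with the summed acinar (squares) or mesenchymal (triangles) markers as a covariate. The interval of Hk2 alone lies above 0, and with the acinar sum the estimates of Ldha, Slc16a1 and Oat move to the other side of 0.

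A wider list of 20 genes described as low in beta cells, among them Rest, Smad3, Cat and Cd44, was tested as a second view of the same class. Of these, 11 were estimated higher and 9 lower in KD, none had an unadjusted p under 0.05, and the median log2 fold change was 0.25, beside 0.01 over all genes. The largest difference was that of Zyx, a focal adhesion protein, at 8.74 ± 1.09 CPM in CTRL and 16.5 ± 17.8 CPM in KD (log2 fold change 0.91, SE 0.57, unadjusted p of 0.144 by edgeR).

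The members were then set against the cell mix of the preparations, measured as the summed CPM of marker genes of 9 cell types in each library. Such a sum follows its most abundant genes and is not a count of cells. In CTRL, Ins2 averaged 115610 and Ins1 41092 CPM in the beta list, and Gcg 21081 CPM in the alpha list. Krt7 averaged 154 CPM in the duct list and Rgs5 108 CPM in the mesenchymal list. No list had a marker at 0 in all mice, so no cell type could be taken as absent. The sum of 12 acinar markers, the digestive enzymes of exocrine tissue, spanned 12.4-fold, from 16284 to 161899 CPM in CTRL and from 35592 to 201444 CPM in KD. All 12 acinar markers were estimated higher in KD, with a median log2 fold change of 0.88 and none at an unadjusted p under 0.05. Sums of the 14 mesenchymal markers ran from 233 to 255 CPM in CTRL and from 136 to 419 CPM in KD. Sums of the 12 endothelial markers ran from 520 to 640 CPM in CTRL and from 459 to 514 CPM in KD, without overlap. Of these markers, 7 of 12 were lower at an unadjusted p under 0.05 by edgeR, beside 4.12% of all genes in either direction. The beta markers summed to 146704 to 203501 CPM in CTRL and 127748 to 188208 CPM in KD, and the alpha markers to 14833 to 40222 and 12871 to 30459 CPM. Macrophage and leukocyte markers summed to 129 to 194 CPM in CTRL and 145.8 to 307 CPM in KD. The other sums overlapped between the groups, from 246 to 275 CPM in CTRL and 259 to 335 CPM in KD for duct, 3867 to 6863 and 3147 to 5440 CPM for delta and PP, and 11.4 to 14.8 and 9.01 to 13.2 CPM for Schwann cell markers. KD mouse M149, highest in 5 members, was also the highest of the 8 in 4 of the 9 sums (acinar, duct, mesenchymal, and macrophage and leukocyte) and the lowest in the alpha, the delta and PP, and the Schwann cell sums. KD mouse M146, lowest in 6 members, was the lowest in the mesenchymal sum.

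Single markers that met the rule for naming did not pass after adjustment over all genes (adjusted p = 0.987 for each by edgeR). The endothelial genes with an unadjusted p under 0.05 were Pecam1, Cdh5, Kdr, Flt1, Esam, Tek and Ptprb, with log2 fold changes between -0.38 and -0.24. Ins1, an insulin gene, had 41092 ± 7908 CPM in CTRL and 21699 ± 4567 CPM in KD (log2 fold change -0.92, SE 0.33), without overlap, and the pericyte gene Rgs5 had a log2 fold change of -0.31 (SE 0.12). C1qb and C1qc, complement genes of macrophages, had log2 fold changes of 0.54 (SE 0.22) and 0.66 (SE 0.27). In the lists with no such gene, the largest differences were those of Clps (1.06, SE 0.70) among acinar, Muc1 (1.41, SE 0.68) among duct, Ttr (-0.33, SE 0.27) among alpha, Ppy (-0.29, SE 0.30) among delta and PP and Gfap (-0.53, SE 0.47) among Schwann cell markers.

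Across the 8 mice, 72 correlations of a member's log2 CPM with a log2 marker sum were computed. After Benjamini-Hochberg adjustment over the 72 none was under 0.05 for Pearson's r or Spearman's rho, while 13 had an unadjusted exact permutation p under 0.05 by Pearson's r and 10 by Spearman's rho. By r over all 8 mice, Pdgfra moved most closely with a marker list. Its correlation with the mesenchymal sum, which holds Pdgfrb but not Pdgfra, was r = 0.92 (exact permutation p = 0.00129, adjusted 0.0929) and rho = 0.95 (exact permutation p = 0.00114, adjusted 0.0821). It was 0.81 without mice M146 and M149, the 2 farthest from the median of the sum, and 0.93 for deviations from the group means. The 4 CTRL mice lay close together in the mesenchymal sum, so the span of the relation came from the KD mice. With the macrophage and leukocyte sum, Pdgfra had r = 0.72 (exact permutation p = 0.0458, adjusted 0.259). That r was 0.94 for deviations from the group means and 0.50 without mice M149 and M150. Which of these sums Pdgfra followed was not tested.

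**Figure D4:**
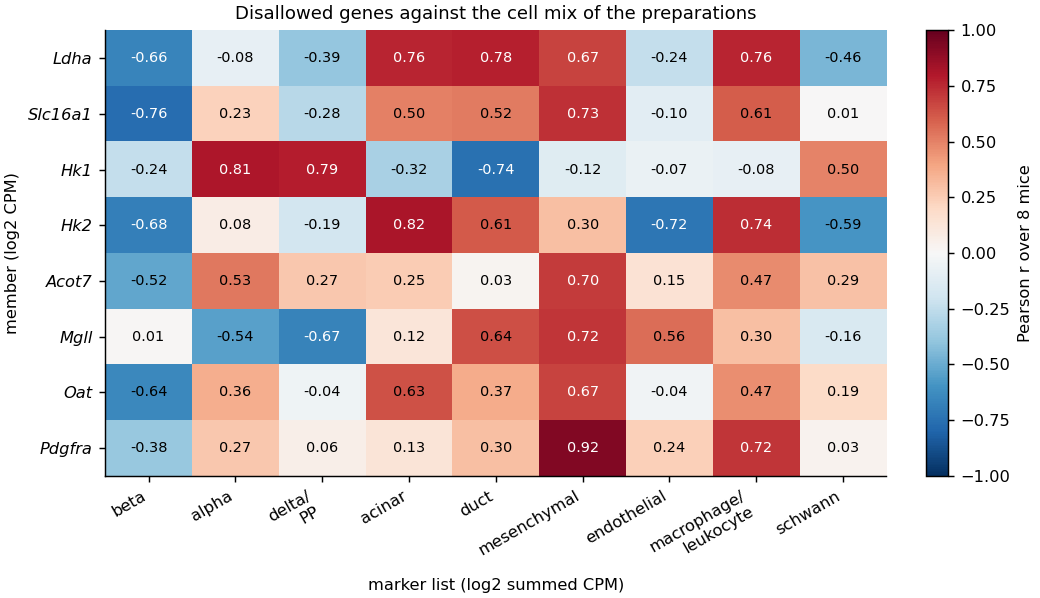
Pearson's r over the 8 mice between the log2 CPM of each member (rows) and the log2 summed CPM of each marker list (columns), red for positive and blue for negative. All members other than Hk1 and Hk2 had r of at least 0.67 with the mesenchymal sum. Without mice M146 and M149 this r held only for Pdgfra (0.81). It was then 0.42 for Acot7, -0.09 for Mgll, -0.39 for Oat, -0.51 for Ldha and -0.58 for Slc16a1. Hk1 had its highest values with the alpha and delta/PP sums.

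Hk2 and Ldha tended to be high where the acinar sum was high, without passing the adjustment. For Hk2, r was 0.82 (exact permutation p = 0.0113, adjusted 0.255) and rho 0.86 (exact permutation p = 0.0107, adjusted 0.193), with r = 0.62 without mice M148 and M151 and 0.81 for deviations from the group means. For Ldha, r was 0.76 (exact permutation p = 0.0270, adjusted 0.255) and rho 0.81 (exact permutation p = 0.0218, adjusted 0.224), with r = 0.89 without the same 2 mice. Ldha also had r = 0.78 with the duct sum and r = 0.76 with the macrophage and leukocyte sum, which were 0.34 and 0.40 without mouse M149 and thus rested on it. Hk2 had correlations of similar size with the macrophage and leukocyte sum (r = 0.74, exact permutation p = 0.0359, adjusted 0.255) and, in the other direction, with the endothelial sum (r = -0.72, exact permutation p = 0.0390, adjusted 0.255). For deviations from the group means these were 0.66 and -0.28, and the endothelial sums did not overlap between the groups. The r with the macrophage and leukocyte sum was 0.42 without mice M149 and M150. With the beta sum, Ldha had r = -0.66 and rho = -0.81 (exact permutation p of rho 0.0218, adjusted 0.224). Hk2 had r = -0.68 and rho = -0.76 with that sum (exact permutation p of rho 0.0368, adjusted 0.265). With the Schwann cell sum, Hk2 had r = -0.59 and rho = -0.76, with the same p of rho. For deviations from the group means, these r were -0.62, -0.49 and -0.27. Which of these lists Hk2 or Ldha followed was not tested. With the acinar sum as a covariate the log2 fold change of KD over CTRL was 0.44 for Hk2, -0.028 for Ldha, -0.11 for Slc16a1 and -0.23 for Oat, and the cause of these shifts was not tested.

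Hk1 had its highest positive correlations with the sums of endocrine cells other than beta cells, again without passing the adjustment. Its r was 0.81 with the alpha sum (exact permutation p = 0.0143, adjusted 0.255) and rho was 0.71 (exact permutation p = 0.0576, adjusted 0.374). Its r with the delta and PP sum was 0.79, and 0.22 without mice M149 and M151. With the duct sum, Hk1 had r = -0.74 and rho = -0.83, and r = -0.33 without the same mice. Without mice M151 and M150, the highest in alpha markers, the alpha correlation was 0.28 and no longer held, so with the summed CPM it rests on those samples. With the mean z-score of the alpha list, which weights its genes equally, r was 0.89 and 0.62 without the same mice. Slc16a1 had r = -0.76 with the beta sum (exact permutation p = 0.0219, adjusted 0.255) and rho = -0.88. Oat had r = -0.64 (exact permutation p = 0.0677, adjusted 0.259) and rho = -0.90 (exact permutation p = 0.00456, adjusted 0.164) with the same sum. Mgll had r = 0.72 with the mesenchymal sum, which was -0.09 without mice M146 and M149 and therefore rested on them.

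**Figure D5:**
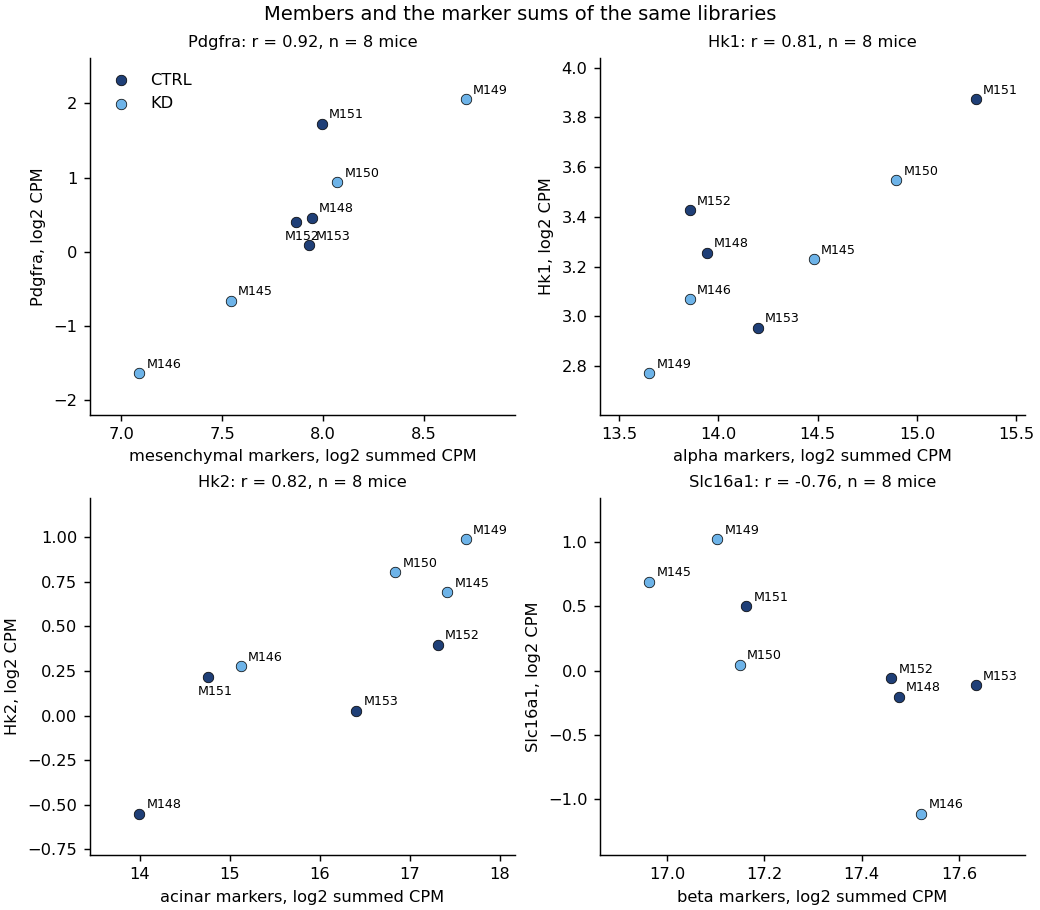
Log2 CPM of 4 members against a log2 marker sum in the same libraries, 1 point per mouse labelled with M and its number, CTRL dark and KD light. Pdgfra climbed with the mesenchymal sum from M146 to M149, Hk1 with the alpha sum owing to M151 and M150, and Hk2 with the acinar sum, while Slc16a1 was lower at higher beta sums.

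Among themselves, several members moved together. Over the 8 mice, and given as a description since all points share their libraries, r was 0.90 (rho 0.98) between Slc16a1 and Oat, 0.85 (rho 0.93) between Ldha and Slc16a1 and 0.77 (rho 0.90) between Ldha and Oat. These are the 3 genes whose promoters were printed above for that reason, and the ACGTG core stood in 1 of the 2 Ldha windows and in that of Slc16a1 and not in that of Oat or the second one of Ldha. Acot7 moved with Pdgfra (r = 0.85) and with Oat (r = 0.83). Hk2 had r = 0.77 (rho 0.69) with Ldha, 0.51 with Slc16a1 and 0.52 with Oat. Hk1 had r = 0.56 (rho 0.71) with Acot7 and 0.23 with Pdgfra, but -0.13 with Hk2, -0.18 with Ldha and -0.54 with Mgll.

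The genes most like each member over the 8 mice were taken by Pearson's r of log2 CPM among 9304 to 9305 tested genes with a mean log2 CPM above 3, and are a description with no test. Ldha was most like Myrf (r = 0.97), Isyna1 (0.97) and Rpl23a (0.96). Slc16a1 was most like Cd24a (0.97), Cobl (0.95) and the duct marker Spp1 (0.95). Oat shared Cobl with Slc16a1 (0.96) and was next most like Man2a1 (0.96) and Itga1 (0.95). Hk1 was most like Eef1a2 (0.97), a translation factor of neurons and muscle, Dpp6 (0.96), a potassium channel subunit, and Sort1 (0.95). Hk2 was most like the epithelial splicing factor Esrp2 (0.95), Ttc17 (0.95) and Surf2 (0.93). Acot7 was most like Rcn1, Cd9 and Slfn5 (all 0.93), and Mgll like Foxred2 (0.94), Gramd1b (0.93) and Casp8 (0.93). Pdgfra was most like Nid1 (0.97), a basement membrane protein, Igfbp4 (0.97), itself on the wider list of genes low in beta cells, and C1s1 (0.96), a complement protease.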

How the data were processed

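Bulk RNA-seq was made from islets of 4 CTRL and 4 KD mice, isolated with collagenase, filtered and collected on a density gradient, with stranded mRNA libraries. The authors deposited estimated counts per Ensembl gene, not scaled between mice. The submitters' processing notes name fastp, kallisto and GRCm38, and versions, annotation release and strand setting are not given in the sources used here.

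Counts were rounded to whole numbers. Of 53012 identifiers 51906 matched a symbol. Coordinates and exon lengths come from GENCODE M21. Genes were kept by filterByExpr (minimum count 10 in at least 4 mice, total 15), scaled by TMM and tested with edgeR 4.0.16 (R 4.3.3) by the quasi-likelihood test with Benjamini-Hochberg adjustment over all 15474 genes. Log2 CPM used a prior count of 2. Exact permutation tests of group differences and ratios ran over all 70 assignments of the mice. Those of correlations ran over all pairings of the values of the mice, with ranks from scipy 1.17.1. DESeq2 1.42.0 and limma 3.58.1, other filters and scalings, covariates and leaving out mice were alternatives. No 2 libraries of a group agreed within sampling noise.

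Named were the 8 members, their partner genes (1 of them, with its ratios, is not reported here), in every other list the genes with an unadjusted p under 0.05 or else the largest fold change, and the 3 genes most like each member. The marker lists were summarised by their sums and counts. The members and lists were chosen with earlier results of these data known.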

Additional observations from a re-analysis of the deposited data

Results flagged for a closer look

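The lowest or highest mouse of a group of 4 was set against the other 3 by Dixon's ratio, the gap to the nearest mouse over the whole range (95% critical value for 4 samples). Of 50 groups examined, 3 passed, where chance gives about 2.5 at 1 in 20. Oat in KD mouse M146 was at 2.80 log2 CPM, against 3.72 to 3.85 in the other KD mice (ratio 0.878). The log2 ratio of Mgll to Abhd6 in KD mouse M149 was 0.85, against 0.20 to 0.29 in the other KD mice (ratio 0.860). The summed Schwann cell markers in CTRL mouse M152 were at 3.51 log2 CPM, against 3.84 to 3.89 in the other CTRL mice (ratio 0.870). Mouse M146 was also the lowest mouse for 5 other members, and mouse M149 the highest for Mgll and 4 other members. The causes were not tested.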

How the results depend on the processing

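No paired analysis was possible because no mouse number occurs in both groups. With 4 mice per group and low counts for Slc16a1, Hk2 and Pdgfra, small differences were not detectable. No member passed an adjusted p of 0.05 under any alternative. DESeq2 called 8 genes and limma-voom 1, where edgeR called 0. Genes with an unadjusted p under 0.05 numbered 637, and 1098 without the filter, 1143 with Xist as a covariate, 383 with the acinar sum as a covariate, and 383 (without mouse M148) to 1114 (without mouse M152) when 1 mouse was left out, with 402 without mouse M153 and 960 without mouse M146. Direction turned for Oat with limma-voom (-0.011), the acinar sum (-0.23) and the endothelial sum (-0.091), for Mgll with Xist (0.053) and the endothelial sum (0.39), for Ldha (-0.028) and Slc16a1 (-0.11) with the acinar sum, and for Pdgfra with the endothelial sum (0.041), all as log2 fold changes. Because the endothelial sums of the groups did not overlap, fits with that sum cannot separate it well from the group. The causes were not tested.

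When each mouse was left out in turn, the log2 fold changes ran from 0.04 to 0.62 for Ldha, -0.023 to 0.60 for Slc16a1, -0.39 to -0.04 for Hk1, 0.51 to 0.83 for Hk2, -0.37 to 0.0085 for Acot7, -0.24 to -0.0052 for Mgll, -0.055 to 0.23 for Oat and -0.89 to 0.50 for Pdgfra. Log2 ratio differences ran from 0.08 to 0.77 for Ldha/Ldhb, -0.13 to 0.57 for Slc16a1/Bsg, 0.67 to 1.04 for Hk2/Hk1, -0.31 to -0.10 for Mgll/Abhd6, -0.075 to 0.22 for Oat/Glud1 and -0.75 to 0.26 for Pdgfra/Pdgfrb. Hk2 and Hk2/Hk1 kept their direction in each of these. The unadjusted p of Hk2 was above 0.05 without mouse M148, M153, M145, M149 or M150. Pdgfra could not be tested at 10 counts in every mouse. Leaving out KD mice M146 and M149 together, chosen after seeing the data, gave 538 genes with an unadjusted p under 0.05 and 0.73 for Hk2 (unadjusted p of 0.0650 by edgeR).

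With the mean z-score of each list in place of its sum, 4 of 72 correlations had an adjusted exact permutation p under 0.05: Ldha with beta (r = -0.90), Oat with beta (-0.81), Hk1 with alpha (0.89) and Pdgfra with mesenchymal markers (0.95). Leaving out 1 mouse gave 0 to 1 such pairs, the 1 being Pdgfra with mesenchymal markers without mouse M151 (r = 0.99).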
